A study of Mus musculus with 13 samples.

Results

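The cytosolic ribosomal protein genes are described here across resident microglia and infiltrating myeloid cells of the mouse spinal cord in EAE (experimental autoimmune encephalomyelitis), in which an immune attack on myelin inflames the cord. Members were the features whose symbol starts with Rpl or Rps followed by a digit, together with Rplp0, Rplp1, Rplp2 and Rpsa. The 10 Rps6k kinases were left out, and 0 symbols held the pseudogene mark -ps. This gave 86 of the 22598 features of the count matrix. Of the 86 symbols, 77 name core subunits and 9 name paralogs or other proteins, namely Rpl3l, Rpl7l1, Rpl10l, Rpl22l1, Rpl36al, Rpl39l, Rps27l, Rps27rt and Rps19bp1, the last being a binding partner of Rps19 and not a subunit. Members carried 18449029 of 116091839 unique molecular identifiers (UMIs, each standing for 1 captured mRNA molecule), or 15.9%. Rpl10l had 0 UMIs, and the other 85 passed the filter on low counts and were tested.

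All mice were of the Cx3cr1YFPCreERT2:R26tdTomato genotype, controls included, a fate-mapping line in which Cre recombinase expressed from the Cx3cr1 locus and activated by tamoxifen switches on a red reporter. Long-lived microglia keep that mark, while monocytes made later from marrow precursors lose it, so the sort separates resident from infiltrating myeloid cells. Cells were sorted live after cold mechanical dissociation and profiled singly on the 10x Genomics platform. Of the 13 libraries, 8 held resident cells (3 from controls, 2 from the peak of EAE and 3 from its chronic stage) and 5 held infiltrating cells (2 peak, 3 chronic). There was no infiltrating control group. Age, sex, the tamoxifen schedule and the time since induction of EAE are not given in the sources used here. Samples of 1 group are biological replicates per the labels, which do not say whether animals were pooled. Since the deposited cell table leaves out the labels' replicate numbers, letters (a, b, c) serve only to name the libraries.

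The ribosome is built from a small subunit, whose proteins carry the prefix Rps, and a large subunit, whose proteins carry the prefix Rpl, around ribosomal RNA. Most of the proteins are present as a single copy per ribosome, and the genes of the core subunits are broadly expressed, strongly so in cells that grow or divide. Their mRNAs begin with a cytosine followed by further pyrimidines (the 5′ terminal oligopyrimidine tract), through which the kinase mTOR and the binding protein Larp1 control how well they are translated. Microglia, the resident macrophages of the central nervous system, leave their resting state in EAE and multiply.

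Start-site sequences are shown for members on which the results below turn, because that tract is the feature the family is best known for. They were read from RefSeq sequences on GRCm38.p6, which held 66 of the 86 members. Capitals mark the longest run of C and T within 20 bases either side of the annotated start. Such a run can lie upstream of that start, outside the annotated mRNA, and so need not be the tract itself. Rps18 (chr17:33955646-33955675, minus strand), Rpl12 (chr2:32961702-32961731, plus strand) and Rps6 (chr4:86857348-86857377, minus strand) were among the members that rose most at the peak. Rpl4 (chr9:64173367-64173396, plus strand), Rps24 (chr14:24490668-24490697, plus strand) and Rpl37 (chr15:5116595-5116624, plus strand) were among those that rose most in chronic EAE. Rpl7l1 (chr17:46782647-46782676, minus strand) and Rps19bp1 (chr15:80264287-80264316, minus strand) were called at neither stage.
Rps18: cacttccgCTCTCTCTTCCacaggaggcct
Rpl12: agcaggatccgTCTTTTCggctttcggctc
Rps6: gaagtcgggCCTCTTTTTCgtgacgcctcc
Rpl4: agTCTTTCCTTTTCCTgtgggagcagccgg
Rps24: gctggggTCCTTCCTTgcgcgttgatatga
Rpl37: agtagTTTCCTgggcggaagcttatccaca
Rpl7l1: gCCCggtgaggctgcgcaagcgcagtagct
Rps19bp1: cggaagtagCTCgccgcgtgtgggcggggc
The run was 14 bases long in Rpl4, 11 in Rps18, 10 in Rps6, 9 in Rps24, 7 in Rpl12, 6 in Rpl37 and 3 in both Rpl7l1 and Rps19bp1. Among members not shown, length and call did not always go together. Rps27 and Rps9 had runs of 9 and were called at neither stage. Rpl41, Rpl24 and Rpl23 had runs of 3 and were called at both. A run of at least 8 was found in 30 of the 66 members (45.5%), against 18.4% of 27025 RefSeq genes. Over the 57 core subunits it was found in 28, and over the other 9 symbols in 2. CCGGAAG, the core of the site bound by ETS-family factors, was found on either strand of the 300 bases around the start in 26 members (39.4%), against 9.93% of all genes. Its reverse strand holds C and T bases and can overlap the run. TATAAA, searched the same way, was found in 7 members (10.6%), against 15.7%. These matches describe letters in a window and were not related to the counts.

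Libraries differed in ways that touch the results. They were sequenced in 4 pools. Control a was sequenced with peak infiltrating a (pool A). Control c was sequenced with the 2 chronic libraries named c (pool B), and control b with 3 peak libraries, resident a and b and infiltrating b (pool C). The other 4 chronic libraries made up pool D. The batch date of the cell table splits pool C, with peak resident a and peak infiltrating b on 1 date and control b and peak resident b on another, and has 1 date for each other pool. No pool held both disease stages, so stage and pool cannot be told apart when peak and chronic EAE are compared. Chronic infiltrating library b went against its gate, as 1915 of its 2359 cells are annotated as microglia. The infiltrating comparison therefore used only annotated monocytes and macrophages (285 to 1709 cells and 2262491 to 20256465 UMIs per library, of which chronic b gave 342 cells). The resident comparisons used only annotated microglia (486 to 4293 cells and 4196375 to 17965689 UMIs per library). A barcode occurred in more than 1 library for 110 of 22148 cells.

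In microglia the family as a whole made up a larger share of the mRNA at both disease stages than in healthy controls. The share of UMIs in the 3 control libraries was 9.55%, 10.1% and 10.2%. It was 17.1% and 20.7% in the peak libraries and 14.1%, 13.4% and 17.1% in the chronic libraries. Every EAE library lay above every control library. The means were 9.97% ± 0.368 (SD, n = 3) in controls, 18.9% ± 2.52 (n = 2) at the peak and 14.9% ± 1.97 (n = 3) in chronic EAE, which is 1.90 and 1.49 times the control mean. Each share is relative to all other mRNA, so a rise of these genes and a fall of other genes cannot be told apart. The matrix holds 0 mitochondrially encoded genes, which leaves those transcripts out of the total.

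**Figure D1:**
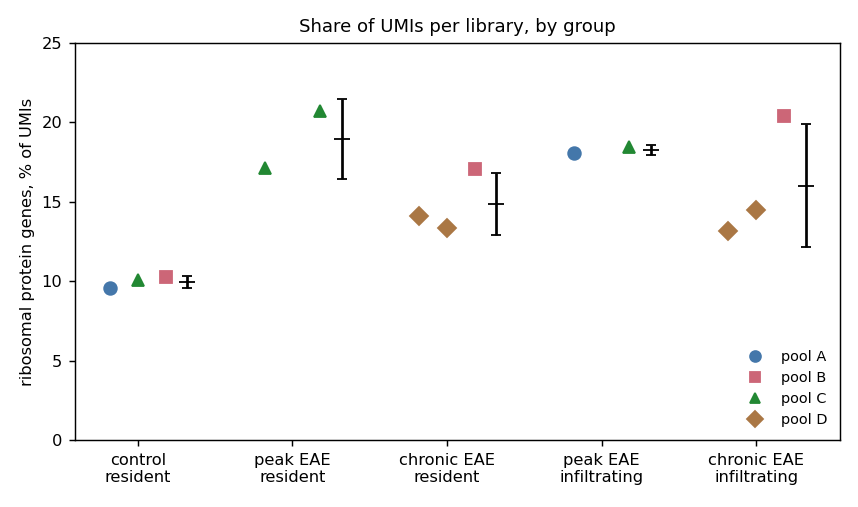
Percent of UMIs that belong to the cytosolic ribosomal protein genes in each library (vertical axis), by group (horizontal axis), over annotated microglia of resident libraries and annotated monocytes and macrophages of infiltrating libraries. Symbols and colours give the sequencing pool, and black bars the group mean with its SD. All 5 EAE resident libraries sit above the 3 controls, while the chronic infiltrating libraries, at 13.2% to 20.4%, lie on both sides of the peak ones.

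Counted per cell, the median microglia of a control library held 298 to 437 ribosomal protein UMIs and 2703 to 4025 other UMIs. At the peak both were higher, at 1385 and 1758.5 ribosomal protein UMIs and 7132.5 and 6851 others. In chronic EAE the median cell held 322 to 582 ribosomal protein UMIs and 2164 to 2953 others. Chronic microglia were thus not deeper than controls, while peak microglia were. The share spread widely within a library. The lower and upper quartiles of the cells were 7.50% and 11.0% in control a and 17.4% and 24.6% in peak b.

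The comparison held within the 2 pools that contain both conditions. In pool C, control b stood at 10.1% and the peak libraries at 17.1% and 20.7%, the latter from the batch date of control b. In pool B, control c stood at 10.2% and chronic c at 17.1%. Pool D, which contributes chronic a and b, held no control. Pool B gave the highest chronic value in every annotated cell type, for example 34.9% in dendritic cells of chronic infiltrating c against 19.8% and 22.0% in the others.

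At the peak of EAE, 67 of the 85 tested members rose in microglia and 0 fell. Over all 11479 genes tested, 12.3% rose and 9.67% fell. The median log2 fold change of the members was 1.30 (2.47-fold), against 0.00 over all genes, and single members ranged from -0.36 to 2.49. Both subunits took part, with 42 of 51 Rpl symbols and 25 of 34 Rps symbols called, at medians of 1.25 and 1.33. The test was edgeR's quasi-likelihood test on UMIs summed per library, with Benjamini-Hochberg adjustment over all genes and a threshold of 0.05.

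Rps18, a small-subunit protein of the head next to the large subunit, had 438, 785 and 546 CPM (counts scaled to the library total, with TMM factors) in control libraries a, b and c. It had 2288 and 3371 CPM in peak libraries a and b, well clear of all controls. The log2 fold change was 2.26 (SE 0.43, adjusted p = 0.00243 by edgeR's quasi-likelihood test). Rpl12, of the large-subunit stalk base, stood at 394, 720 and 324 CPM in controls and 1831 and 2256 CPM at the peak (2.09, SE 0.47, adjusted p = 0.00587). For Rps6, the small-subunit protein phosphorylated by the S6 kinases downstream of mTOR, the values were 283, 551 and 255 CPM in controls and 1023 and 1671 CPM at the peak (1.89, SE 0.42, adjusted p = 0.00598). In all 3 genes control b, the control from the pool of the peak libraries, was the highest control. With pool as a term the log2 fold changes were 1.93 for Rps18, 1.46 for Rpl12 and 1.36 for Rps6. The median over the members in that fit was 1.40, so Rpl12 and Rps6 then stood near it. Rps19, known for its mutation in Diamond-Blackfan anaemia, rose by 1.97 (SE 0.46, adjusted p = 0.00779) and Rpl32 by 1.94 (SE 0.30, adjusted p = 0.000679) on the log2 scale. Without peak library b, the adjusted p was 0.0516 for Rpl12, 0.0842 for Rps6 and 0.0893 for Rps19, while Rps18 and Rpl32 were called without each library in turn.

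The stalk proteins that recruit elongation factors to the large subunit rose by 1.42 (Rplp0, SE 0.35, adjusted p = 0.00982) and 1.38 (Rplp2, SE 0.25, adjusted p = 0.00169) on the log2 scale by edgeR's quasi-likelihood test. Rplp0 had 956, 853 and 1087 CPM in controls and 1984 and 3195 CPM at the peak. Their partner Rplp1 ranged from 2074 to 2929 CPM in controls and from 4185 to 5540 CPM at the peak without passing the test (log2 fold change 1.02, SE 0.39, adjusted p = 0.0748). Rpsa, a small-subunit protein that is also the laminin receptor, went from 637 to 859 CPM in controls to 1785 and 3156 CPM (1.66, SE 0.33, adjusted p = 0.0031). Groups did not overlap in any of these 4 genes. Without peak library b the adjusted p of Rplp0 was 0.141 and that of Rpsa 0.0702. Rpl3, at the peptidyl transferase centre, rose by 1.70 (SE 0.38, adjusted p = 0.00577, and 0.0819 without peak library b).

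Of the 9 symbols that name no core subunit, Rpl22l1, Rpl39l and Rps27l were called at the peak. Rpl22l1, the paralog of Rpl22, stood at 139 to 172 CPM in controls and 413 and 502 CPM at the peak (log2 fold change 1.55, SE 0.33, adjusted p = 0.00431 by edgeR's quasi-likelihood test). Rps27l, a p53 target, stood at 97.6 to 122 CPM and 238 and 322 CPM (1.32, SE 0.27, adjusted p = 0.00389, and 0.0615 without peak library b). Rpl39l, mainly known from testis, was near the limit of counting, with 1.01, 3.07 and 1.11 CPM in controls against 3.91 and 14.8 CPM, and its call was lost without control a (adjusted p = 0.0867), control c (0.0943) or peak library b (0.453), on library size alone (0.0511) and when pool was a term (0.0874). Rps27rt, a retrotransposed copy of Rps27, did not pass (adjusted p = 0.057). Rpl7l1 stood at 75.5 to 89.2 CPM in controls and 54.3 and 74.3 CPM at the peak (log2 fold change -0.36, SE 0.21, adjusted p = 0.253). Rps19bp1 stood at 31.4 to 42.3 CPM and 32.3 and 34.5 CPM (-0.18, SE 0.22, adjusted p = 0.618). Rpl36al was within 148 to 271 CPM in controls and at 191 and 310.5 CPM at the peak (0.31, SE 0.30, adjusted p = 0.509), while Rpl36a, which encodes nearly the same protein, rose by 1.12 (SE 0.24, adjusted p = 0.00518, and 0.0725 without peak library b). Rpl3l, the striated-muscle form of Rpl3, was at 0 in all control and peak microglia. Among core subunits, Rps29, Rps27, Rpl37, Rps4x and Rplp1 were not called, with log2 fold changes of 0.76, 0.90, 0.91, 0.68 and 1.02.

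**Figure D2:**
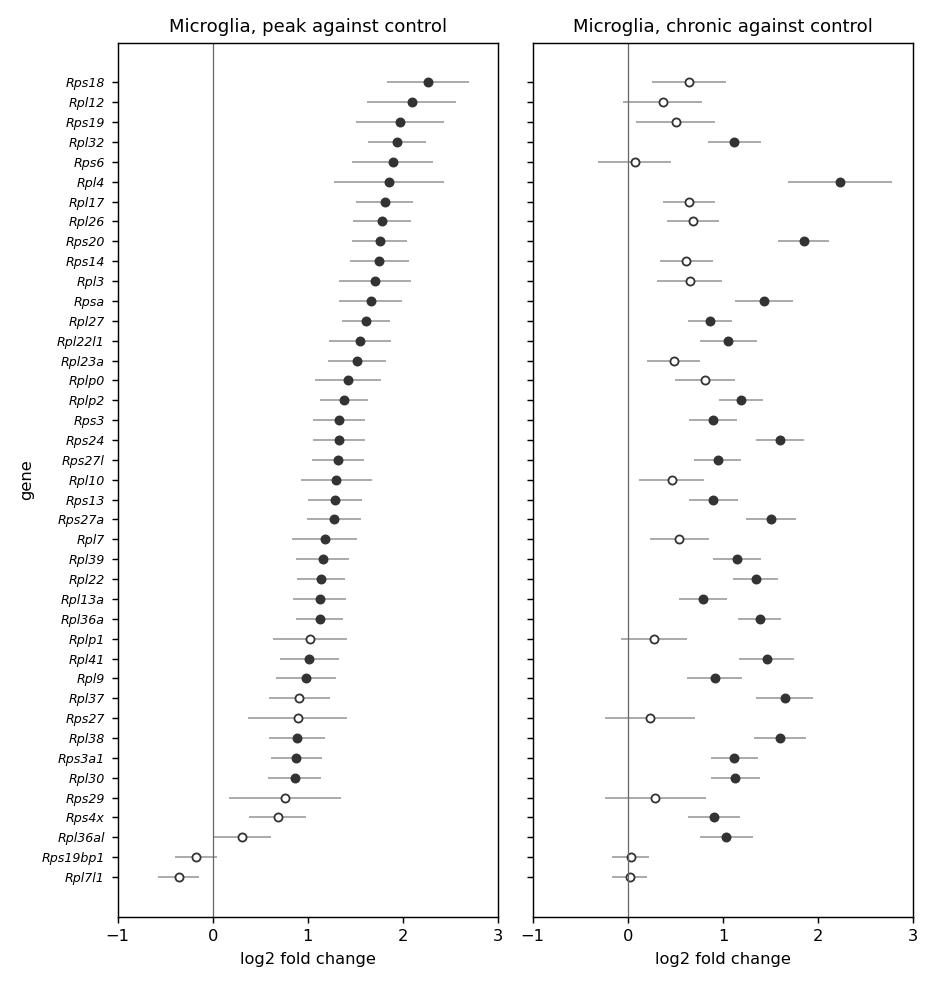
Log2 fold change with its SE (horizontal axis) of the members named by rule with an average log2 CPM above 3 (vertical axis, ordered by the change at the peak), in microglia at the peak and in chronic EAE, each against the same 3 controls. Filled points passed edgeR's quasi-likelihood test at an adjusted p under 0.05, open points did not. The fit shown has no term for sequencing pool. Rpl7l1 and Rps19bp1 lie near 0 in both panels. Rps18, Rpl12 and Rps6 are far to the right in the peak panel only, and Rpl4 is the farthest in the chronic panel.

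The size of the peak count rested on 1 library. Without peak library b, 16 of 85 members were called higher at a median of 1.00, against 5.99% of all genes higher and 2.46% lower. Without peak library a, 62 were called higher at a median of 1.53, against 7.51% and 3.62%. Within pool C, 83 of 85 members were higher in both peak libraries than in control b and 54 were higher at least 2-fold, against 37.2% and 8.47% of all genes. A fall of that size was seen in 0 members, against 6.63%. With sequencing pool as a term in the fit, 79 rose and 0 fell, against 13.3% and 9.15%. With batch date as a term, a fit added after seeing the data, 82 rose and 0 fell, against 16.4% and 12.4%. Over all controls and peak libraries, 80 members had CPM values that did not overlap and were higher at the peak and 1 that were lower, against 27.2% and 27.6%. Other measures moved with the peak group. The mitochondrial percent of the median cell was 2.27 and 2.63, against 1.08 to 1.46 in controls. The 10 microglia markers summed to 8809 and 9464 CPM, against 25279 to 31204 CPM in controls. The 10 cycling-cell genes summed to 379 and 390 CPM, against 100 to 149 CPM, with 0 of the 10 at 0. The 10 monocyte markers summed to 56.5 and 127 CPM at the peak, with 2 at 0, against 14.0 to 32.7 CPM in controls and 6327 to 11124 CPM in peak infiltrating cells. The part of these in the result was not tested. In cells with 2000 to 10000 UMIs only, a range of depth that all groups share, 68 members rose and 0 fell, at a median of 1.45, against 9.67% and 7.12% of all genes. On library size alone 52 rose and 1 fell, against 7.96% and 18.6%.

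In chronic EAE, 53 of 85 members were higher in microglia than in controls and 0 were lower, against 11.3% and 6.46% of all genes. The median log2 fold change was 1.05 (2.08-fold), against -0.01 over all genes. It was called for 33 of 51 Rpl symbols and 20 of 34 Rps symbols. The same 3 controls served both stages, so the 2 counts are not independent. Of the members, 44 were called at both stages, 23 at the peak and not in chronic EAE, 9 in chronic EAE and not at the peak, and 9 at neither.

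Rps20, a small-subunit protein of the head, had 1140, 956 and 1262 CPM in controls. It had 4503, 4475 and 3106 CPM in the chronic ones, and 3218 and 4337 CPM at the peak. Its chronic log2 fold change was 1.85 (SE 0.27, adjusted p = 0.000387 by edgeR's quasi-likelihood test). Rps24, which has the most UMIs of all members, stood at 1900, 1606 and 2116 CPM in controls and 6225, 6036 and 4788 CPM in chronic EAE (1.60, SE 0.26, adjusted p = 0.000856). Both genes kept the call when any 1 library was left out and with pool as a term, at 1.52 and 1.37. Rpl37 stood at 1719, 1148 and 1806 CPM in controls and 5574, 5428 and 3634 CPM in chronic EAE (1.65, SE 0.30, adjusted p = 0.00196). Chronic groups lay above controls in all 3 genes, and library c was the lowest chronic library in each. With pool as a term the adjusted p was 0.0747 for Rpl37.

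The largest chronic change was that of Rpl4, a large-subunit protein that lines the exit tunnel, and it was uneven. Its controls had 189, 303 and 171 CPM, and its chronic libraries had, in the order a, b, c, 1499, 1305 and 303 CPM. Libraries a and b, from pool D, were far above the rest, and library c, from pool B, was level with control b. The log2 fold change was 2.23 (SE 0.54, adjusted p = 0.0126 by edgeR's quasi-likelihood test) and fell to 1.03 (SE 0.34, adjusted p = 0.133) with pool as a term, or 1.03 (adjusted p = 0.0792) with batch date. The call was also lost without control a (adjusted p = 0.0552), control c (0.0597), chronic a (0.0643) or chronic b (0.0524).

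Rps6, Rpl12, Rps18 and Rps19 did not pass the test in chronic EAE, with log2 fold changes of 0.07, 0.36, 0.64 and 0.50. Rps6 had 336, 292 and 515 CPM in the chronic libraries, against 283, 551 and 255 CPM in controls, so the groups overlapped. In library c, the only one sequenced with a control, Rps6 was above control c of that pool by 1.01 on the log2 scale. Rpl12 was above it by 1.40, Rps18 by 1.20 and Rps19 by 1.13. Over the family, 83 of 85 members were higher in chronic c than in control c and 49 were higher at least 2-fold, against 50.1% and 6.68% of all genes, and 0 were lower at least 2-fold, against 2.76%. The median of these ratios was 1.03.

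Among paralogs, Rpl36al and Rpl22l1 were called in chronic EAE, at log2 fold changes of 1.04 (SE 0.28, adjusted p = 0.0197) and 1.05 (SE 0.30, adjusted p = 0.0271) by edgeR's quasi-likelihood test. Rpl22 rose by 1.34 (SE 0.23, adjusted p = 0.0015) and Rpl36a by 1.39 (SE 0.23, adjusted p = 0.000981). Rps27l stood at 174.5 to 259 CPM in chronic EAE against 97.6 to 122 CPM in controls (0.94, SE 0.25, adjusted p = 0.0193). The calls of Rpl36al, Rpl22l1 and Rps27l were lost without control a, control b, chronic a or chronic b, those of Rpl22l1 and Rps27l also without control c, and that of Rpl22l1 also without chronic c (adjusted p from 0.0517 to 0.106). With pool as a term Rpl36al stood at 0.52 (adjusted p = 0.544), Rps27l at 0.49 (adjusted p = 0.545) and Rpl22 at 1.18 (adjusted p = 0.0506), so their calls were lost. With batch date as a term those of Rpl36al (adjusted p = 0.22) and Rps27l (adjusted p = 0.36) were lost. Rpl7l1 at 82.0 to 85.7 CPM and Rps19bp1 at 37.9 to 39.1 CPM lay within their control ranges. At the peak Rps19bp1 had also lain within its control range, while Rpl7l1 had been below every control in both peak libraries. Rps27rt had a log2 fold change of -0.01. Rpl3l was at 0 in chronic libraries a and b and at 0.0531 CPM in c.

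The chronic count moved with the controls and with the pool. Without control a, control b or chronic a, 34, 31 and 34 members were called higher, against 7.08%, 6.3% and 5.85% of all genes, and 0 lower, against 3.24%, 2.95% and 2.13%. With pool as a term 29 were higher and 0 lower, against 3.25% and 0.889% of all genes. With batch date as a term 75 were higher and 0 lower, against 4.3% and 1.11%. The members' median log2 fold change did not drop with either term. It was 1.16 in both fits, against 1.05 in the fit without a term. On library size alone 36 were higher and 1 lower, against 6.59% and 29.9%. CPM values did not overlap for 64 members, all higher in chronic EAE, against 22.2% of all genes higher and 21.9% lower. Microglia marker genes summed to 13909 to 14678 CPM in chronic EAE and 25279 to 31204 CPM in controls, with 0 of 10 at 0 in any group. The 8 markers of border-associated macrophages summed to 73.3 to 116 CPM in chronic EAE, with 1 at 0, against 3.14 to 5.30 CPM in controls and 859 to 1393 CPM in chronic infiltrating cells. The part of either in the result was not tested.

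Within deposited clusters of microglia the picture was narrower. The authors' clusters were formed from the expression of the same cells, so their levels are descriptions. Cluster 9 held 87.8% to 94.6% of control microglia and at most 0.512% of those in a chronic resident library, at a share of 9.35%, 9.94% and 10.0%. Cluster 1 was the one with over 50 cells in all controls and all chronic resident libraries. In cluster 1 the share was 11.99%, 11.8% and 14.1% in controls a, b and c and 13.1%, 11.2% and 16.4% in the chronic ones, which overlap. When only cluster 1 cells were tested, 0 of 83 members were called by edgeR, against 0.488% higher and 0.359% lower over all genes. At an unadjusted p under 0.05 there were 11, a level at which all genes were not counted, so this number has no share to set it against. The median log2 fold change was 0.16, against -0.01 over all genes. The control sums of that test held 56 to 103 cells each.

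**Figure D3:**
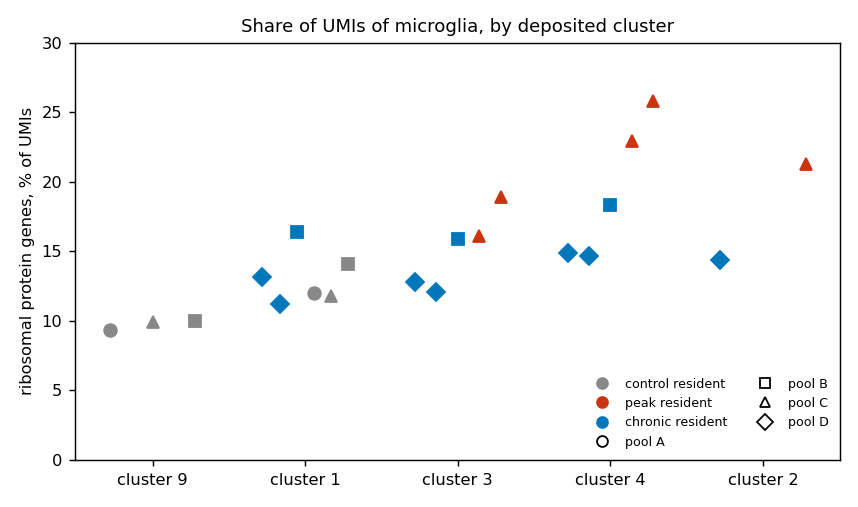
Percent of UMIs that belong to the cytosolic ribosomal protein genes (vertical axis) in microglia of each deposited cluster (horizontal axis), 1 point per resident library with at least 50 cells of that cluster. Colour gives the group and shape the sequencing pool. Control and chronic libraries overlap in cluster 1, at 11.8% to 14.1% and 11.2% to 16.4%, and peak libraries are highest in cluster 4.

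In the clusters shared by both disease stages, peak libraries were higher. Cluster 3 stood at 16.1% and 18.9% at the peak and 12.8%, 12.1% and 15.9% in chronic EAE. Cluster 4 stood at 22.9% and 25.8% at the peak and 14.9%, 14.7% and 18.4% in chronic EAE. The groups did not overlap in either cluster. Cluster 4 was above cluster 3 in 6 of 6 libraries, by 2.00 to 6.92 percentage points.

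Between the stages, 0 members were higher and 8 were lower in chronic than in peak microglia, against 4.75% and 5.04% of all genes, with a median of -0.31. Among the 8 were Rps6, Rpl12, Rps18, Rpl17, Rps14, Rpl26 and Rpl23a. Rps6 fell by 1.82 (SE 0.42, adjusted p = 0.0244), Rpl12 by 1.73 (SE 0.46, adjusted p = 0.0361) and Rps18 by 1.62 (SE 0.43, adjusted p = 0.0351) on the log2 scale by edgeR's quasi-likelihood test. Peak and chronic libraries did not overlap in Rps18, at 2288 and 3371 CPM against 801, 708 and 1257 CPM, where chronic c was the highest chronic library. Without peak library a the members' median was -0.57, and without peak library b it was 0.03. The count of lower members was 0 with pool or batch date as a term (each with 0.00871% of all genes higher and 0.0% lower). It was 0 without chronic a, where 173 of 11379 genes were lower, and 0 without chronic b, where 85 of 11368 were. Without control a it was 1, against 312 of 11332 genes, and without control c 4, against 341 of 11353. Without chronic infiltrating c it was 14, against 720 of 11453. Restricted to cluster 3 it was 16 of 84, with 0 higher, against 9.92% of all genes lower and 8.67% higher. Restricted to cluster 4 it was 21 of 84, with 0 higher, against 2.71% lower and 1.98% higher, where the median was -0.84. Stage and pool cannot be told apart in these restricted tests.

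In infiltrating monocytes and macrophages the share of UMIs was 18.1% and 18.5% at the peak and 13.2%, 14.5% and 20.4% in chronic EAE. The groups overlapped, since chronic c lay above both peak libraries and chronic a and b below. The mix of cells differed too, with 1023 monocytes and 686 macrophages in peak a and 177 and 180 in peak b. Chronic a, b and c held 157 and 350, 77 and 265, and 86 and 199. Within monocytes and within macrophages, chronic c was again above both peak libraries and chronic a and b below. The part of the mix in the sums was not tested. By edgeR 0 of 85 members were called in either direction, against 0.566% of all genes higher and 0.227% lower, while 15 members had an unadjusted p under 0.05, against 16.8% of all genes, and DESeq2 called 2 higher and 2 lower, against 2.47% and 1.06%. The median log2 fold change was -0.10. Rps6 had 876 and 1416 CPM at the peak and 441, 353 and 771 CPM in chronic EAE (-1.14, SE 0.42, adjusted p = 0.208). Rpl36al, with 341 and 224 CPM at the peak and 617, 600 and 579 CPM in chronic EAE, did not pass either (1.08, SE 0.32, adjusted p = 0.123), although its groups did not overlap. The difference of the chronic-against-peak change between infiltrating cells and microglia was called for 0 of 85 members by edgeR, against 0.0% of all genes higher and 0.0436% lower, with 0 members at an unadjusted p under 0.05 and 0 called by DESeq2. Rpl3l, at 1.88 to 11.7 CPM, was found in all 5 infiltrating libraries.

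Across annotated cell types, T cells and dendritic cells had the largest share. In T cells it was 23.6% to 31.7% over 8 libraries, in dendritic cells 19.8% to 34.9% over 5, in monocytes 15.4% to 22.8% over 5 and in macrophages 12.4% to 20.2% over 10. T cells were above microglia in 5 of 5 libraries that held at least 20 cells of both, by 9.55 to 12.6 percentage points, and above macrophages in 8 of 8, by 8.53 to 13.8. The order held when all cells were restricted to 1 range of depth, with T cells 8.55 to 13.4 points above microglia in cells of 2000 to 10000 UMIs. Monocytes were above macrophages in 5 of 5 libraries, by 1.34 to 3.53 points, and in 4 of 5 within that range. Macrophages and EAE microglia of the same library were alike in size, the difference running from -1.24 to 1.30 points over 7 libraries, with macrophages higher in 4. Cell types were named from the expression of the same cells, so these are descriptions, and the T cell values rest on 24 to 141 cells per library.

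**Figure D4:**
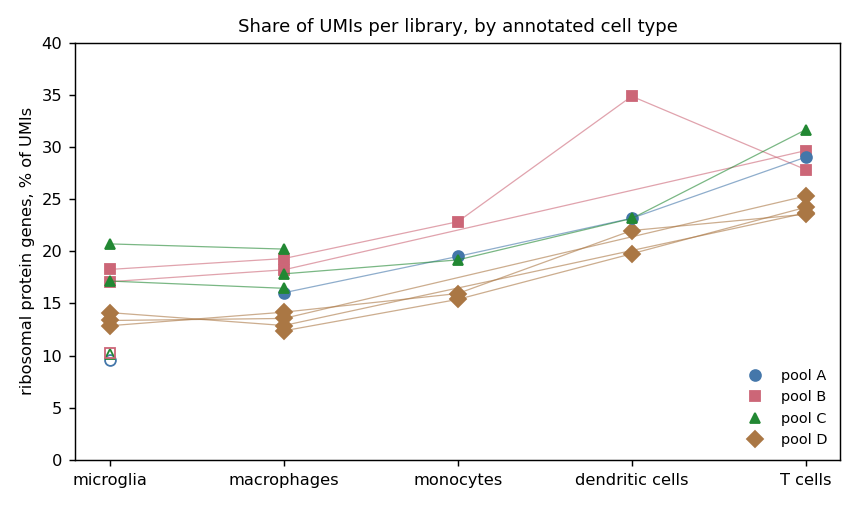
Percent of UMIs that belong to the cytosolic ribosomal protein genes (vertical axis) in each annotated cell type (horizontal axis) with at least 20 cells in a library. Lines join the cell types of 1 library, colour and shape give the sequencing pool, and open symbols are controls. Control microglia, at 9.55% to 10.2%, are the lowest points and T cells and dendritic cells the highest.

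Members also differed in their part of the family's own UMIs, and this followed the sequencing pool. Rps6 made up 0.691% to 0.803% of the family's UMIs in the 4 libraries of pool C, 0.379% and 0.388% in pool A, 0.314% to 0.325% in pool B and 0.191% to 0.266% in pool D. The pools did not overlap, although pool C held control, peak resident and peak infiltrating libraries. Rpl12 ran from 0.937% to 1.24% in pool C and from 0.225% to 0.347% in pool D. Pool D was the highest for Rpl4, at 0.829% to 0.981% in pool D, 0.434% to 0.463% in pool C and 0.186% to 0.259% in pools A and B. Rps24 was at 3.71% to 4.19% in pool D and 2.30% to 3.07% elsewhere. Between pools C and D, 28 of 85 members were higher in every library of pool D and 30 were lower, against 5.14% and 7.0% of all genes scaled in the same way. Between pools B and D, both of which held chronic resident and chronic infiltrating libraries, 25 were higher and 26 lower in pool D, against 5.5% and 2.89%.

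**Figure D5:**
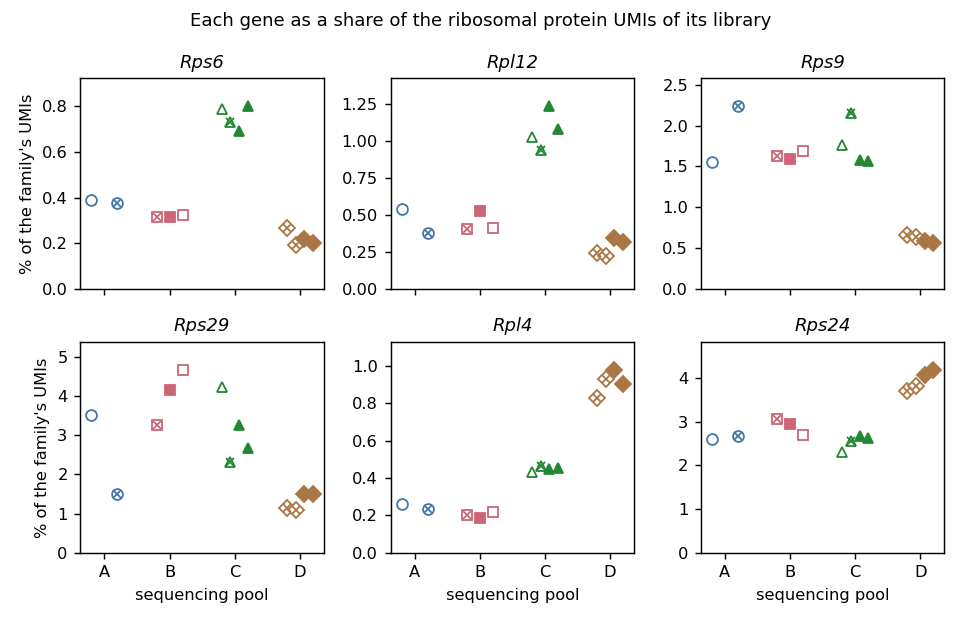
Share of the family's UMIs (vertical axis, percent) taken by 6 members, picked after their values were seen, in each of the 13 libraries, by sequencing pool (horizontal axis). Filled symbols are EAE resident libraries, open symbols controls and crossed symbols infiltrating libraries. Rps6 and Rpl12 are highest in pool C and lowest in pool D whatever the group, and Rpl4 and Rps24 are highest in pool D. Rps9 and Rps29 are lowest in pool D, and Rps29 spreads widely within the other pools.

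When each library was scaled by the summed UMIs of the members, so that only the balance within the family was compared, few members stood out. At the peak 3 were higher and 6 lower than in controls, against 3.27% and 65.0% of all genes, which on this scale fall as the family rises. In chronic EAE 2 were higher and 5 lower, against 3.34% and 63.9%. Between the stages 1 was higher and 3 lower, against 4.77% and 1.11%. In infiltrating cells edgeR called 0 (0.523% and 0.0436% of all genes), with 19 at an unadjusted p under 0.05, a level at which all genes were not counted on this scale. For the difference between the cell classes edgeR called 0 (0.0% and 0.0174%), with 0 at that level. The members' median was 0.02 and 0.00, where the median of all genes was -1.23 and -1.07. Relative to the family, 18 members were higher and 15 lower in every peak library than in every control, against 5.64% and 76.5%, and 10 and 11 in chronic EAE, against 3.96% and 73.3%. Rps18 and Rpl32 were the named members still called at the peak, and Rps20 and Rps24 those in chronic EAE.

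Cell types differed in the balance within the family as well, measured between cells of the same library and therefore the same pool. Rps29, a small zinc-binding protein of the small subunit, took 0.721% to 2.18% of the family's UMIs in T cells and 1.44% to 4.15% in microglia over 5 libraries. It was lower in T cells in each, by 0.85 to 1.05 on the log2 scale. Rpsa was the opposite, at 2.17% to 2.52% in T cells and 1.26% to 1.49% in microglia, higher in 5 of 5 libraries by 0.64 to 0.84. Rpl10, a large-subunit protein that joins late in assembly, was lower in T cells in 5 of 5, at 0.472% to 0.848% against 0.800% to 1.34%. Rps27 and Rpl13a were higher in T cells in 5 of 5 libraries, with medians of 0.68 and 0.60. Rps27 and Rps27l encode near-identical proteins. Rps27l shared a stretch of 50 bases with 4 other annotated genes. Of these, 0 were in the count matrix, so Rps27 was not among them.

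Of 38 elongation and initiation factors, 15 rose and 0 fell at the peak (median log2 fold change 0.73), where 12.3% of all genes rose and 9.67% fell. In chronic EAE 9 rose and 0 fell (median 0.50), where 11.3% of all genes rose and 6.46% fell. Eef1g, a subunit of the factor that reloads elongation factor 1A, rose by 1.78 (SE 0.29, adjusted p = 0.000807) at the peak by edgeR's quasi-likelihood test, and Pabpc1, the poly(A)-binding protein, by 1.29 (SE 0.28, adjusted p = 0.00524). In chronic EAE Pabpc1 rose by 1.40 (SE 0.26, adjusted p = 0.00243) and Eif4b by 1.22 (SE 0.23, adjusted p = 0.00247). Rack1, a ribosomal protein that falls outside the naming rule, rose by 2.07 (SE 0.35, adjusted p = 0.00109) at the peak. Fau, the precursor of small-subunit protein S30, rose by 1.67 (SE 0.30, adjusted p = 0.00206) in chronic EAE. Each of them missed the threshold at the other stage (Fau adjusted p = 0.0724 at the peak, Rack1 adjusted p = 0.323 in chronic EAE).

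Of 34 biogenesis factors, 3 rose at the peak (Npm1, Tsr1 and Bop1) and 5 in chronic EAE, with medians of 0.29 and 0.20. The first count is a smaller share than that of all genes (12.3%) and the second is near it (11.3%). Npm1, the nucleolar chaperone, rose by 1.45 (SE 0.31, adjusted p = 0.00443 by edgeR's quasi-likelihood test) at the peak. Of 22 genes of RNA polymerases I and III and their initiation factors, which make ribosomal RNA, 1 rose at the peak, and 3 rose and 1 fell in chronic EAE, with medians of -0.03 and 0.00. Over all genes 12.3% rose at the peak, and 11.3% rose and 6.46% fell in chronic EAE. Polr2f rose at the peak, and Polr2f, Polr2k and Polr2l in chronic EAE, all of which are subunits shared with RNA polymerase II. Polr1a, the largest subunit of RNA polymerase I, fell by 0.97 (SE 0.29, adjusted p = 0.0355 by edgeR's quasi-likelihood test) in chronic EAE. Of 23 regulators of ribosomal protein synthesis, 4 rose and 2 fell at the peak, against 12.3% and 9.67% of all genes. Larp1, which binds the 5′ terminal oligopyrimidine tract, rose by 1.22 (SE 0.31, adjusted p = 0.0122 by edgeR's quasi-likelihood test). Eif2ak2, a kinase that halts initiation in response to double-stranded RNA, rose by 1.69 (SE 0.33, adjusted p = 0.00258). In chronic EAE 1 of the 23 rose and 2 fell, against 11.3% and 6.46% of all genes. Max rose by 1.00 (SE 0.30, adjusted p = 0.0318 by edgeR's quasi-likelihood test). Rptor, the defining subunit of mTOR complex 1, fell by 1.27 (SE 0.38, adjusted p = 0.0333). Of the 13 ribosome quality control genes, 0 were called at the peak by edgeR, against 12.3% of all genes higher and 9.67% lower. In chronic EAE 1 rose, Etf1, a release factor, and 0 fell, against 11.3% and 6.46%. Of 78 mitochondrial ribosomal proteins, 3 rose at the peak (median 0.22) and 12 in chronic EAE (0.53), and 0 fell at either stage. The share of all genes that rose was 12.3% and 11.3%, above the first of these counts and near the second. The share of all genes that fell was 9.67% and 6.46%.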

How the data were processed

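The authors deposited raw counts of UMIs per gene and cell. The submitters' processing notes name Cell Ranger 3.1.0, R 4.1.3 and the builds GRCm38 and mm10, and no annotation release. The deposited cell table gives each cell's mitochondrial percent (at most 5.0), the log10 of its UMI total, which matched the matrix, and the authors' other labels: library, pool, batch date, gate, stage, cell type and cluster. It marks 0 cells as doublets, and no doublet caller was run. A dense table of counts was not used here.

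UMIs were summed per library, over annotated microglia (8 resident libraries) or monocytes and macrophages (5 infiltrating libraries). 1 edgeR 4.0.16 quasi-likelihood fit of 5 group means (R 4.3.3, limma 3.58.1, filterByExpr, TMM, 8 residual degrees of freedom, biological variation 26.0%) covered all 11479 genes passing the filter. Genes were called at a Benjamini-Hochberg adjusted p under 0.05. The script was tested on simulated counts. DESeq2 1.42.0 was an alternative. Shares were described and not tested, for cell types with at least 20 cells and clusters with at least 50. P-values measure the spread between libraries.

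Up to 5 called members with the largest and 5 with the smallest change per comparison (average log2 CPM at least 5), the 6 with the highest mean CPM and a fixed set of paralogs, stalk proteins and others were named, except items not reported here, and of each pathway list up to 4 genes with the smallest p. Members and lists were chosen with earlier results of these data known. Of the 86 members, 82 share a stretch of 50 bases with other annotated genes, a median of 9, mostly processed copies, so reads may have been split or dropped. Sequences are RefSeq's.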

Additional observations from a re-analysis of the deposited data

How the results depend on the processing

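The counts of called members moved with sequencing pool, with peak library b and with the control libraries. Depth differed between groups as well. In cells with 2000 to 10000 UMIs only, 51 members were higher in chronic EAE and 0 lower, against 1051 and 563 of 11074 genes. Their median log2 fold change was 1.04. The peak counts of that fit are given above, and the part of depth in the results was otherwise not tested. Members called higher at the peak numbered 3 when scaled by the members' summed UMIs, and lower 1 on library size only and 6 scaled by the members. Higher in chronic EAE numbered 2 scaled by the members, 29 with pool as a term and 0 in cluster 1 alone, and lower 1 on library size only and 5 scaled by the members. Between stages 1 was higher and 3 lower scaled by the members. DESeq2 called 15 lower, against 752 of all 11479 genes. Lower members numbered 0 with pool or batch date as a term, 16 in cluster 3 and 21 in cluster 4. In infiltrating cells DESeq2 called 2 higher and 2 lower. Cluster tests and batch date were added after seeing the data. Library size alone moved the median of all genes to -0.32 (peak) and -0.49 (chronic), with members at 0.95 and 0.58.

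With single libraries left out, calls higher at the peak ran from 16 to 71, higher in chronic EAE from 31 to 56 and lower between stages from 0 to 14, and infiltrating and difference calls stayed at 0. The highest counts all came without chronic infiltrating c, where 1524, 1500 and 720 of 11453 genes were called in those directions. Where 1 peak library was left, it was assumed to vary like the other groups. The share differences ran from 7.18 to 10.7 points (peak minus control), 3.78 to 5.64 (chronic minus control), -5.85 to -2.29 (chronic minus peak) and -4.45 to -0.82 (infiltrating).

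Scaled by the members, values turned below 0 for Rpl13a (-0.17), Rpl22 (-0.13), Rpl30 (-0.40), Rpl36a (-0.14), Rpl38 (-0.36), Rpl39 (-0.10), Rpl41 (-0.24), Rpl7 (-0.10), Rpl9 (-0.30) and Rps3a1 (-0.40) at the peak, and for Rpl13a (-0.27), Rpl22l1 (-0.00571), Rpl27 (-0.19), Rpl9 (-0.14), Rps13 (-0.16), Rps27l (-0.10), Rps3 (-0.16) and Rps4x (-0.15) in chronic EAE, since that scale removes the family's rise. In cluster 1, Rps27l (-0.13) turned, and with pool as a term Rpl12 (0.11) and Rpl23a (0.0920), or with batch date Rpl12 (0.0842) and Rpl23a (0.0558), turned between stages (the cause was not tested). No paired analysis was possible because the deposited cell table does not carry the labels' replicate numbers. Pool and batch date were fitted as terms only in the comparisons between microglia. They were not fitted in the infiltrating comparison or for the difference between the cell classes.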
